A study of Mus musculus with 23 samples.

Results

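The genes described here encode the fibrous, basement membrane and adhesive proteins that cells secrete around themselves, together with the enzymes that cross-link them. They were taken by gene symbol alone: every collagen chain, laminin chain, thrombospondin, fibulin and fibrillin, lysyl oxidase and its relatives, both nidogens, and the glycoproteins and small proteoglycans Sparc, Postn, Tgfbi, Tnc, Dcn, Bgn and Lum, with Fn1 not among the annotated probes used here. The rule found 68 genes among the 15161 that had a probe on the arrays, and 45 of the 68 were bright enough to be tested. The other 23 were above the middle of an array's signals on at most 1 of 23 arrays and were not compared: Col4a3, Col4a4, Col6a6, Col8a2, Col9a1, Col9a3, Col10a1, Col13a1, Col15a1, Col19a1, Col23a1, Col26a1, Col27a1, Col28a1, Lama1, Lama2, Loxl3, Fbln1, Fbln5, Fbln7, Lum, Postn and Thbs4.

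RNA came from 2 mouse striatal cell lines, Q7, labelled wild type, and Q111, labelled mutant and derived from a Huntington disease model. Each line had control arrays and arrays of cells exposed for 12 h to 1 of 3 compounds: ZDON and Boc-DON, both at 50 µM, and cystamine, which the labels call CystamineA, at 250 µM. The labels give no vehicle and no duration for the controls, so an effect of either cannot be told apart from a compound's. The 23 arrays used were 3 in each of 8 groups except Q7 Boc-DON, which had 2 because the submitters excluded 1 array after quality control. ZDON and Boc-DON are irreversible transglutaminase inhibitors that carry the same kind of reactive glutamine-like group, and cystamine is a small disulfide that also inhibits transglutaminases. Each genotype is represented by 1 line, so a difference between Q111 and Q7 cannot be told apart from any other difference between these lines. The labels do not say whether same-group arrays came from separate cultures, so p-values measure the spread between these arrays, which may be technical.

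Arrays with the same replicate number shared a BeadChip, the glass slide that carries several arrays, and each chip held both lines and all treatments apart from the excluded array. Chip 3 stood apart for these genes, as described below. Quality also differed on 1 array: a probe named for 18S ribosomal RNA read 4531.3 on the third Q7 ZDON array and between 14244.6 and 27122.2 on the other 22. The array median of the deposited intensities lay between 107.4 and 165. Of 10 striatal projection neuron markers, 7 were tested. Foxp1 and Pde10a lay above the array median on all 23 arrays, Ppp1r1b on 20, and Drd1, Drd2, Foxp2 and Tac1 on 3 to 7. Bcl11b, Gad1 and Gad2 lay under the array median on every array. Of 9 general neuron markers, Syt1, Nefl, Nefm and Dcx did so too, while Map2, Tubb3 and Syn1 were above it on all 23 arrays and Stmn2 on 11.

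Fibrillar collagens of types I, III and V form the tensile fibres of connective tissue, collagen VI forms beaded filaments near the cell surface, and collagen IV, laminins and nidogens build the sheet-like basement membrane. Lysyl oxidases oxidise lysine side chains so that collagen and elastin fibres can be cross-linked, and thrombospondins, Sparc, Tnc and Tgfbi are matricellular or adhesive proteins that tie cells to fibres and tune their attachment. Brain parenchyma holds little fibrillar collagen, which in that tissue lies mainly in vessels and meninges.

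The promoters of 4 genes on which the results turn are shown, since these genes moved most between the lines or with a compound and had an entry in the RefSeq table of build GRCm38.p6. That table held a promoter for 48 of the 68 genes and for 12 of the 18 that differed between the lines. Each stretch is the 250 bases before the annotated start, 5′ to 3′ on the gene's own strand: Thbs2 at chr17:14694263-14694512 on the minus strand, Tgfbi at chr13:56609336-56609585 on the plus strand, Col1a2 at chr6:4505368-4505617 on the plus strand and Nid1 at chr13:13437352-13437601 on the plus strand. Capitals mark matches, on either strand, to 5 motifs that were searched, and no match overlapped another.
Thbs2: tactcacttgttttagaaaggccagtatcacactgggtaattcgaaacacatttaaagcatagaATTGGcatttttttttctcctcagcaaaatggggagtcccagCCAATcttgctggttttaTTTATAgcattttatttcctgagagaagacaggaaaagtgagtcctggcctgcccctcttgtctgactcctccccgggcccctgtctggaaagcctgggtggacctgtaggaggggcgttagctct
Tgfbi: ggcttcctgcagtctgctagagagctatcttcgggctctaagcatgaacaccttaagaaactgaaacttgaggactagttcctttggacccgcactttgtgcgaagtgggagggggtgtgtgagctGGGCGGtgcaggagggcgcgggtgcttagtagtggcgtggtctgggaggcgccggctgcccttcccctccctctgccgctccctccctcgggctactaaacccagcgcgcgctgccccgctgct
Col1a2: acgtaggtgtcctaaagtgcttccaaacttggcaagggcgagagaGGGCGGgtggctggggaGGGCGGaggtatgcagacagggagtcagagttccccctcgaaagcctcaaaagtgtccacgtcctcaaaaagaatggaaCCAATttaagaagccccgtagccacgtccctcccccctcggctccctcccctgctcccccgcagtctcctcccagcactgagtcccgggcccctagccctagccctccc
Nid1: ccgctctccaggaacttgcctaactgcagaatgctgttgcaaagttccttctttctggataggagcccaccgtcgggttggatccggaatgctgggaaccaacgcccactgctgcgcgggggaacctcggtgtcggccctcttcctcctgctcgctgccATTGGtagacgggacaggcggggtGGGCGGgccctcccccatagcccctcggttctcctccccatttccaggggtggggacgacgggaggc
The CCAAT box, CCAAT, was matched 2 times in Thbs2, 1 time in Col1a2 and 1 time in Nid1, and it occurs in 33.8% of all 32851 promoters of this length. The GC box, GGGCGG, was matched 2 times in Col1a2 and 1 time each in Tgfbi and Nid1, and 32.7% of promoters hold it. The TATA box sequence, TATAAA, was matched 1 time in Thbs2 and is held on either strand by 12.4%. That match lay on the strand opposite the gene, 126 to 121 bases before the start, and is a match to the sequence only. Neither the AP-1 motif TGANTCA, in 6.75% of promoters, nor the antioxidant response core TGACNNNGC, in 10.2%, was found in these 4 windows.

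Q111 cells carried more RNA than Q7 cells for the tested type I and VI collagen chains and lysyl oxidases, and for Thbs2, Tgfbi and biglycan. Laminins and the main collagen IV chains were not called. Averaged over the 4 treatment arms, 18 of the 45 tested genes differed at an adjusted p under 0.05, 17 of them higher in Q111 and only Nid1 lower. Col2a1 and Dcn, among the 17, passed the filter on dim probes only through Q111, the line where they were higher. Over all 9849 genes tested, 11.3% were called, with 6.46% higher and 4.84% lower in Q111. The median difference of the 45 genes was 0.16 on the log2 scale, against -0.0075 for all genes, and 33 of the 45 lay above 0. These are the genes that passed the filter: without it, the median over all 68 was 0.06, against -0.0058 over all 15161 genes. Of the 68, 18 were again called, against 990 of the 15161. With the chip as a block 22 were called, 20 higher and 2 lower, against 17.2% of all genes. In bulk RNA, a change in the share of cells that make a transcript and a change per cell cannot be told apart.

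**Figure D1:**
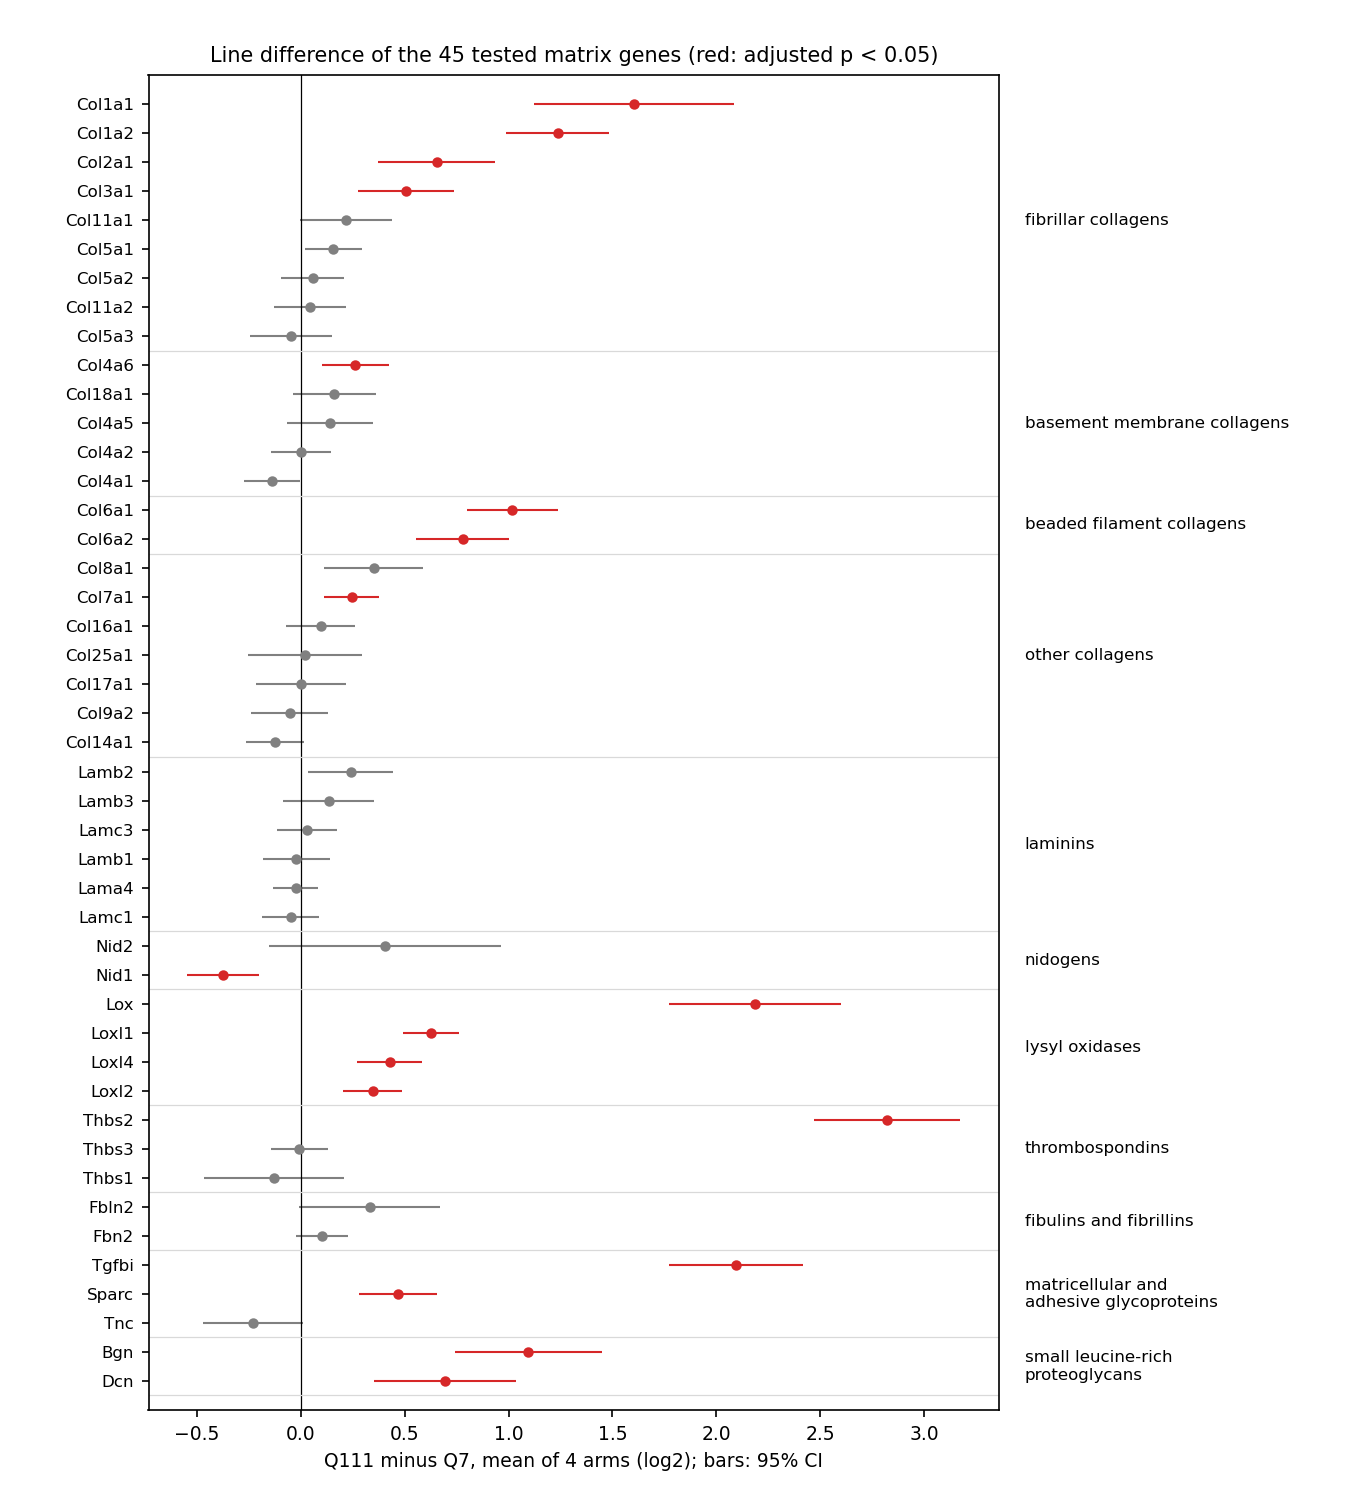
The Q111 minus Q7 difference of each of the 45 tested genes on the log2 scale, averaged over the 4 arms, with its 95% confidence interval; red points passed an adjusted p of 0.05. Lysyl oxidases, collagen VI and the proteoglycans lie wholly to the right of 0, laminins lie about 0, and Nid1 is the red point to the left.

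Among fibrillar collagens, 4 of 9 tested genes were higher in Q111 and none was lower. Col1a1, the main chain of type I collagen, had a normalized log2 intensity between 8.35 and 9.69 on the 11 Q7 arrays, with a median of 8.62, and between 9.39 and 11.48 on the 12 Q111 arrays, with a median of 10.58. The 2 lines overlapped only through chip 3, where the Q7 control and ZDON arrays read 9.69 and 9.54 and the Q111 ZDON, Boc-DON and cystamine arrays 9.41, 9.43 and 9.39. The averaged difference was 1.60 (SE 0.23), a 3.04-fold higher level, with an adjusted p of 5.05e-05. Col1a2, the partner chain in the type I triple helix, lay between 6.78 and 7.48 on Q7 arrays and between 7.65 and 8.88 on Q111 arrays, with medians of 7.11 and 8.30. Every Q111 array was thus above every Q7 array, and the difference was 1.24 (SE 0.12, adjusted p = 2.52e-07). Col3a1, the chain of type III collagen found in compliant tissue, differed by 0.51 (SE 0.11, adjusted p = 0.00378), with Q7 between 6.19 and 7.02 and Q111 between 6.55 and 7.59. Col2a1, the cartilage collagen, differed by 0.65 (SE 0.13, adjusted p = 0.00221) at the dim end: it was above the array median on none of the 11 Q7 arrays and on 9 of 12 Q111 arrays, so it was tested only through Q111. Col5a1, the chain of type V that starts fibril assembly, was bright in both lines, with medians of 13.20 in Q7 and 13.34 in Q111, and its difference of 0.16 had an adjusted p of 0.146. Col5a2, Col5a3, Col11a1 and Col11a2 were not called, at 0.06, -0.05, 0.22 and 0.04.

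The 2 tested chains of collagen VI, whose beaded filaments link fibres to the cell surface, were both higher in Q111, and Col6a6 was not tested. Col6a1 lay between 11.40 and 12.20 on Q7 arrays and between 12.33 and 13.38 on Q111 arrays, without overlap. Its difference was 1.02 (SE 0.11), a 2.02-fold higher level, with an adjusted p of 7.15e-07. Col6a2 was between 7.78 and 8.34 in Q7 and between 8.30 and 9.65 in Q111, so the ranges just met, and the difference was 0.78 (adjusted p = 3.04e-05).

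All 4 tested lysyl oxidases were higher in Q111. Lox, the founding enzyme of collagen and elastin cross-linking, had log2 intensities from 9.31 to 10.50 in Q7, median 9.67, and from 10.91 to 12.67 in Q111, median 12.03. No array of one line reached the other line's range, and the difference was 2.19 (SE 0.20), which is 4.55-fold, with an adjusted p of 1.2e-07. Loxl1, best known for elastic fibre assembly, also did not overlap, at 11.47 to 12.07 in Q7 and 12.16 to 12.66 in Q111, but its difference was smaller at 0.63 (SE 0.06, adjusted p = 7.28e-07). Loxl4 and Loxl2, both able to oxidise collagen lysines, had adjusted p-values of 0.000507 and 0.00162 for differences of 0.43 and 0.35, with overlapping ranges for Loxl4, 7.90 to 8.56 against 8.30 to 9.12, and for Loxl2, 7.22 to 7.72 against 7.69 to 8.23.

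The largest difference of any of the 45 genes was that of Thbs2, a secreted glycoprotein known for its role in collagen fibril assembly and for inhibiting vessel growth. Its log2 intensity was 6.72 to 7.54 on Q7 arrays, median 7.18, and 9.16 to 10.62 on Q111 arrays, median 10.20, which left a wide gap between the lines. The difference was 2.82 (SE 0.17), or 7.07-fold, with an adjusted p of 4.32e-10. Its relatives were not called: Thbs1, an activator of latent TGF-beta, differed by -0.13 (adjusted p = 0.701) and Thbs3 by -0.01 (adjusted p = 0.967). Tgfbi, an integrin-binding adhesive protein first found as a TGF-beta induced transcript, lay between 6.83 and 7.56 in Q7 and between 8.46 and 10.16 in Q111, with medians of 7.14 and 9.16. That difference of 2.09 (SE 0.15), or 4.27-fold, had an adjusted p of 7.6e-09, and again no arrays overlapped. Sparc, a collagen-binding matricellular protein, differed by 0.47 (SE 0.09, adjusted p = 0.00114), with overlapping ranges of 10.14 to 11.18 and 10.70 to 11.71. Tnc, the anti-adhesive glycoprotein tenascin C, differed by -0.23 with an adjusted p of 0.232, and of 0.00182 with the chip as a block.

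The small leucine-rich proteoglycans coat collagen fibrils. Bgn (biglycan) lay between 8.10 and 9.06 in Q7 and between 8.97 and 10.70 in Q111, with medians of 8.86 and 9.91. The overlap came from 1 Q111 array, ZDON on chip 3 at 8.97, and the difference was 1.10 (SE 0.17), or 2.14-fold, with an adjusted p of 0.000122. Dcn (decorin) was dim in Q7, above the array median on 1 of 11 arrays against 10 of 12 in Q111, so it too was tested only through Q111, and it differed by 0.69 (SE 0.16, adjusted p = 0.00656). Its range ran from 6.19 to 6.93 in Q7 and from 6.34 to 8.17 in Q111, and the lowest Q111 value was again on chip 3.

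**Figure D2:**
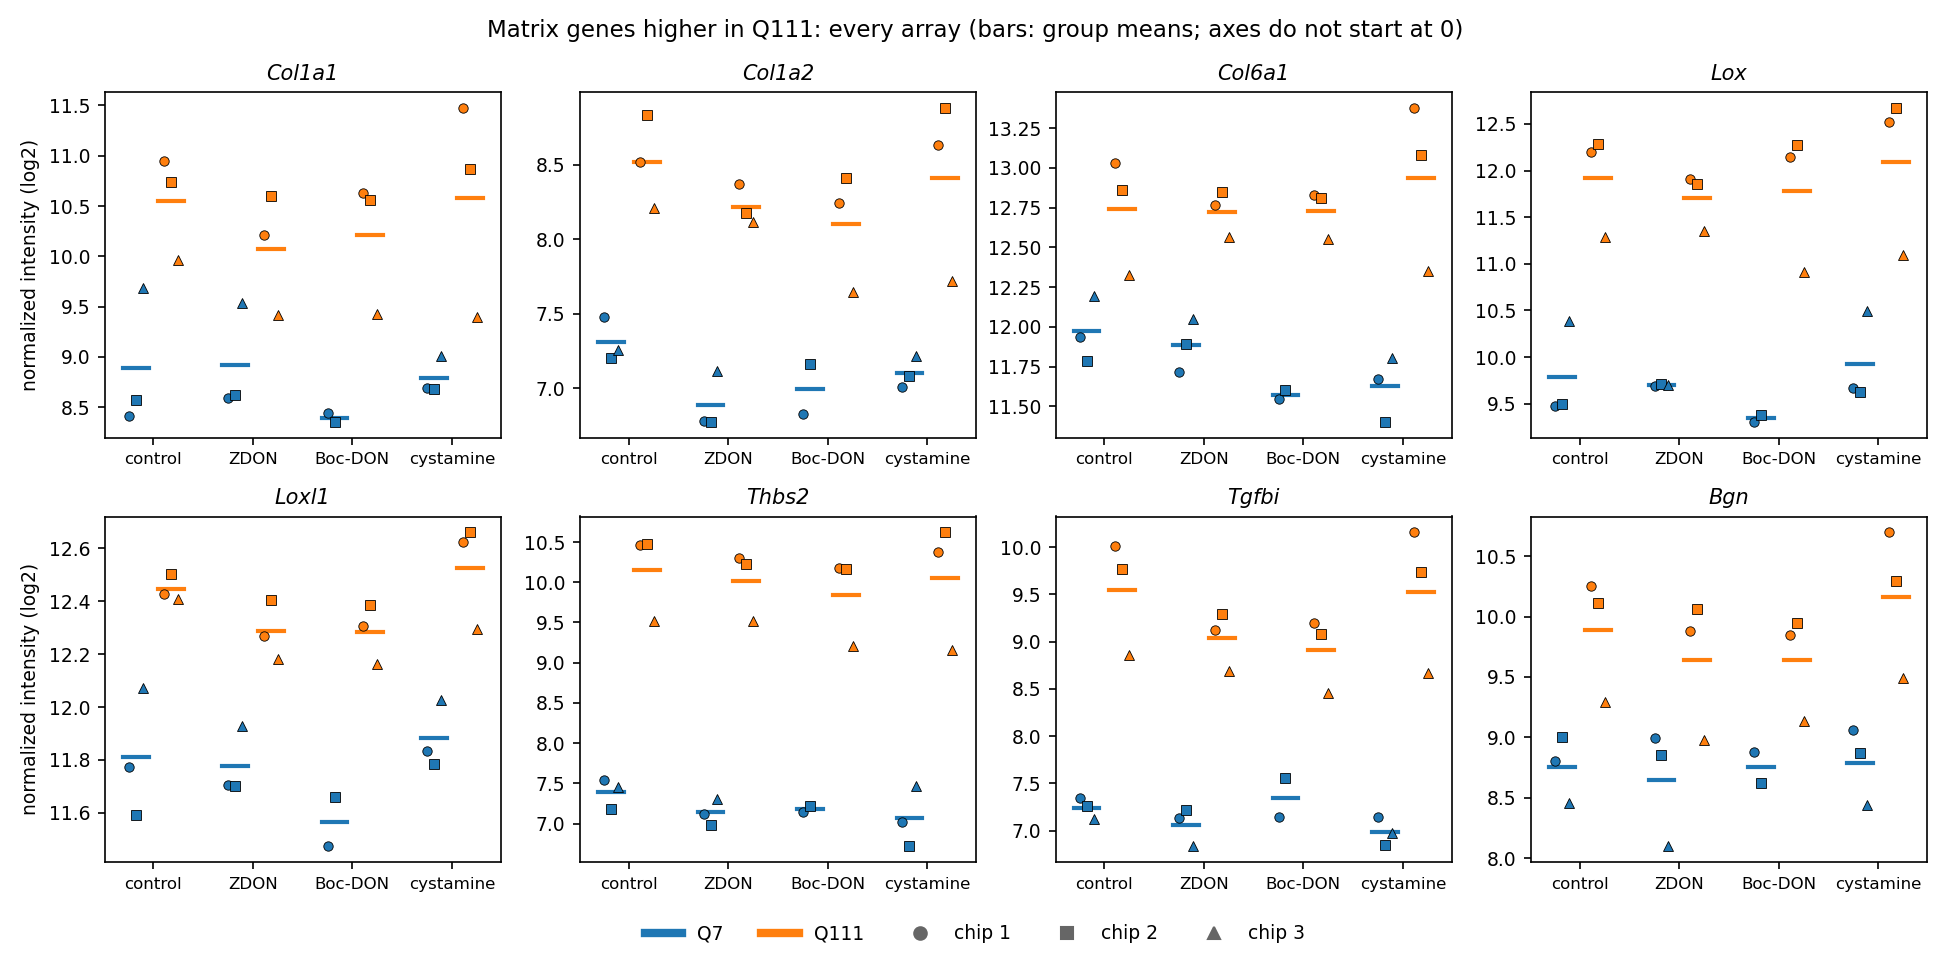
Normalized log2 intensity of 8 matrix genes on every array, by treatment arm; blue is Q7, orange is Q111, marker shapes are the 3 chips and bars are group means. Orange lies above blue for Thbs2, Tgfbi, Lox and Col1a2 in every arm, and the triangles of chip 3 lie closest together for Col1a1.

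Basement membrane genes were mostly not called. Of 6 tested laminin chains, the cross-shaped organisers of the sheet, none was called: the differences ran from -0.05 for Lamc1 to 0.24 for Lamb2, whose adjusted p was 0.132. Lamc1, the gamma chain shared by most laminins, had medians of 11.42 in Q7 and 11.37 in Q111. The ubiquitous collagen IV chains Col4a1 and Col4a2 had differences of -0.14 (adjusted p = 0.192) and -6.26e-05 (adjusted p = 1.00), with 95% intervals from -0.27 to -0.004 and from -0.14 to 0.14. Col4a6, a minor chain, was called at 0.26 (adjusted p = 0.0302), and it lost the call in 9 of the 23 fits that left out 1 array, with an adjusted p of up to 0.0852. The nidogens, which bridge laminin and collagen IV, went opposite ways. Nid1 was lower in Q111, at 7.70 to 9.32 with a median of 8.17 against 8.17 to 9.37 with a median of 8.43, and differed by -0.38 (SE 0.08, adjusted p = 0.00378). Nid2 differed by 0.41 (SE 0.27, adjusted p = 0.393), and by 0.50 (adjusted p = 0.0132) with the chip as a block.

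Of the remaining genes, Col7a1, which forms anchoring fibrils below epithelia, was called at 0.24 (adjusted p = 0.0134) with ranges of 9.21 to 9.87 and 9.31 to 10.02. Col8a1, a network-forming collagen of vessel walls, differed by 0.35 with an adjusted p of 0.052, and of 0.0464 with the chip as a block. Fbln2, a fibulin that binds basement membrane and elastic fibre proteins, differed by 0.33 (adjusted p = 0.222), and by 0.38 (adjusted p = 0.0156) with the block. Fbn2, a fibrillin of microfibrils, and the tested collagens Col9a2, Col14a1, Col16a1, Col17a1, Col18a1, Col25a1 and Col4a5 had differences between -0.12 and 0.16, none called.

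Complete separation of the lines was found for 6 genes, Col1a2, Col6a1, Lox, Loxl1, Tgfbi and Thbs2, in which every Q111 array exceeded every Q7 array, against 0.69% of all genes tested. In the opposite direction, no matrix gene separated, against 0.244% of all genes.

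Within single arms the fit had 3 or fewer arrays a group and called fewer genes. Without treatment, 7 genes were higher in Q111, against 1.55% of all genes called and 1.06% called higher: Thbs2 by 2.76, Tgfbi by 2.30, Lox by 2.14, Col1a2 by 1.21, Loxl1 by 0.63, Loxl4 by 0.60 and Loxl2 by 0.57. With the chip as a block there were 11, adding Bgn, Col1a1, Col2a1 and Col6a1, against 3.26% of all genes. Under ZDON 5 were called, Thbs2, Tgfbi, Lox, Col1a2 and Col6a1, all higher, against 1.21% of all genes called and 0.802% called higher, and 7 with the block, against 2.36%. Under Boc-DON 5 were called, Thbs2, Lox, Tgfbi, Col6a1 and Loxl1, all higher, against 0.589% called and 0.406% called higher, and 8 with the block, against 1.84%. Under cystamine 10 were called, Thbs2, Tgfbi, Lox, Col1a1, Bgn, Col6a1, Col1a2, Col6a2, Loxl4 and Loxl1, all higher, against 2.87% called and 2.02% called higher, and 11 with the block, against 6.38%. Lox, Tgfbi and Thbs2 were called higher in all 4 arms, which is 6.67% of the 45 genes, against 0.284% of all genes. Calls within an arm leaned on single arrays. The control count was 4 without the Q7 array of chip 1 or of chip 2 and 3 without the Q111 array of chip 2. The ZDON count was 3 without the Q111 array of chip 1. Over all genes, calls fell from 153 to 75, 98 and 73 in these control fits, and from 119 to 58 in this ZDON fit. The Boc-DON count was 1 without the Q111 array of chip 2 and 2 without that of chip 1, with Lox and Tgfbi among the calls lost. Over all genes, Boc-DON calls fell from 58 to 20 and 26 in these fits. The cystamine count was 6 without the Q111 array of chip 2, where calls over all genes fell from 283 to 88. Whatever their test, 26 of the 45 genes, or 57.8%, had an estimate above 0 in all 4 arms, against 16.4% of all genes.

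Thbs2 arrays stayed apart by line with or without a compound. In controls the Q7 arrays of chips 1 to 3 read 7.54, 7.18 and 7.46 and the Q111 arrays 10.46, 10.47 and 9.52. With cystamine they read 7.02, 6.72 and 7.47 in Q7 and 10.37, 10.62 and 9.16 in Q111. For Lox the control arrays read 9.48, 9.50 and 10.39 in Q7 and 12.19, 12.29 and 11.29 in Q111, so the Q7 array of chip 3 was the highest of its group and the Q111 array of chip 3 the lowest.

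Line differences were smaller on chip 3 for many of these genes, though the Q7 control array of chip 3 was the lowest, not the highest, of its group for Bgn, Tgfbi and Nid2. Over the 3 arms that all chips hold in both lines, the 45 genes had a median difference of 0.28 and 0.32 on chips 1 and 2 but of 0.08 on the chip 3 arrays. The median over all genes was at or near 0 on each chip. Quantile normalization keeps it there, so it cannot show whether differences of other genes shrank on chip 3 too. Col1a1 differed by 2.31 and 2.11 on chips 1 and 2 and by 0.18 on chip 3. Lox differed by 2.60, 2.66 and 1.05, Thbs2 by 3.15, 3.48 and 1.99, and Tgfbi by 2.56, 2.49 and 1.77, so these 3 kept their direction on every chip. Loxl2, at 0.37, 0.43 and 0.40, and Col7a1, at 0.20, 0.32 and 0.28, did not shrink in this way. Nid2 turned, with 0.78, 0.91 and -0.24, as did Col8a1 with 0.53, 0.55 and -0.31 and Fbln2 with 0.61, 0.60 and -0.20. Nid1 was lower in Q111 on each chip, at -0.16, -0.28 and -0.61. Without chip 3, 27 of the 45 genes were called in the averaged difference, and 15, 14, 18 and 21 in the control, ZDON, Boc-DON and cystamine arms. Calls over all 9849 genes rose as well, from 1113 to 2125 in the averaged difference and to 391, 403, 409 and 1297 in the arms. What sets chip 3 apart was not tested.

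**Figure D3:**
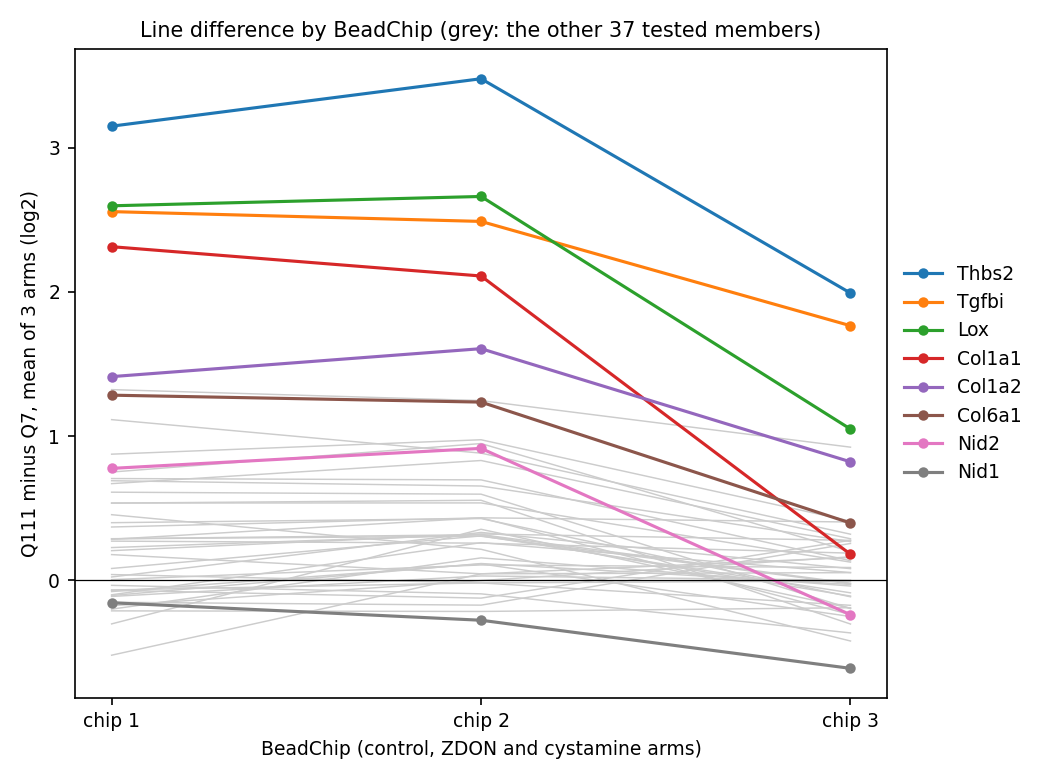
Q111 minus Q7 on each BeadChip, as the mean of the control, ZDON and cystamine arms on the log2 scale; coloured lines are 8 named genes and grey lines the other 37 tested genes. On chip 3 the 6 genes named first in the key, Thbs2 to Col6a1, lie closer to 0 than on chips 1 and 2, Nid2 falls below 0 and Nid1 lies farther below it.

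Against controls, the compounds left nearly all matrix genes uncalled. Cystamine raised 1 of the 45 genes, Nid1, in both lines, against 0.64% of all genes called in Q111 and 0.406% in Q7. In Q111 cells Nid1 read 8.18, 7.96 and 7.84 in controls of chips 1 to 3 and 9.32, 8.91 and 8.66 with cystamine. In Q7 cells it read 8.32, 8.46 and 8.39 in controls and 9.37, 9.29 and 9.32 with cystamine. The treated and control arrays did not overlap in either line, and each treated array was above its chip's control by 0.82 to 1.13 in Q111 and by 0.83 to 1.05 in Q7. The rise was 0.97 in Q111 (SE 0.16, adjusted p = 0.00337), a 1.95-fold increase, and 0.94 in Q7 (SE 0.16, adjusted p = 0.00527), a 1.92-fold increase. The responses of the lines differed by 0.03, with a 95% interval from -0.45 to 0.50. When only the 2 groups of the comparison were fitted, the Q111 call was lost (adjusted p = 0.114), and under median scaling the Q7 call was lost at 0.74 (adjusted p = 0.0991). Without chip 3, Col4a5 and Dcn joined Nid1 in Q111, where calls over all genes also rose, from 63 to 223.

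**Figure D4:**
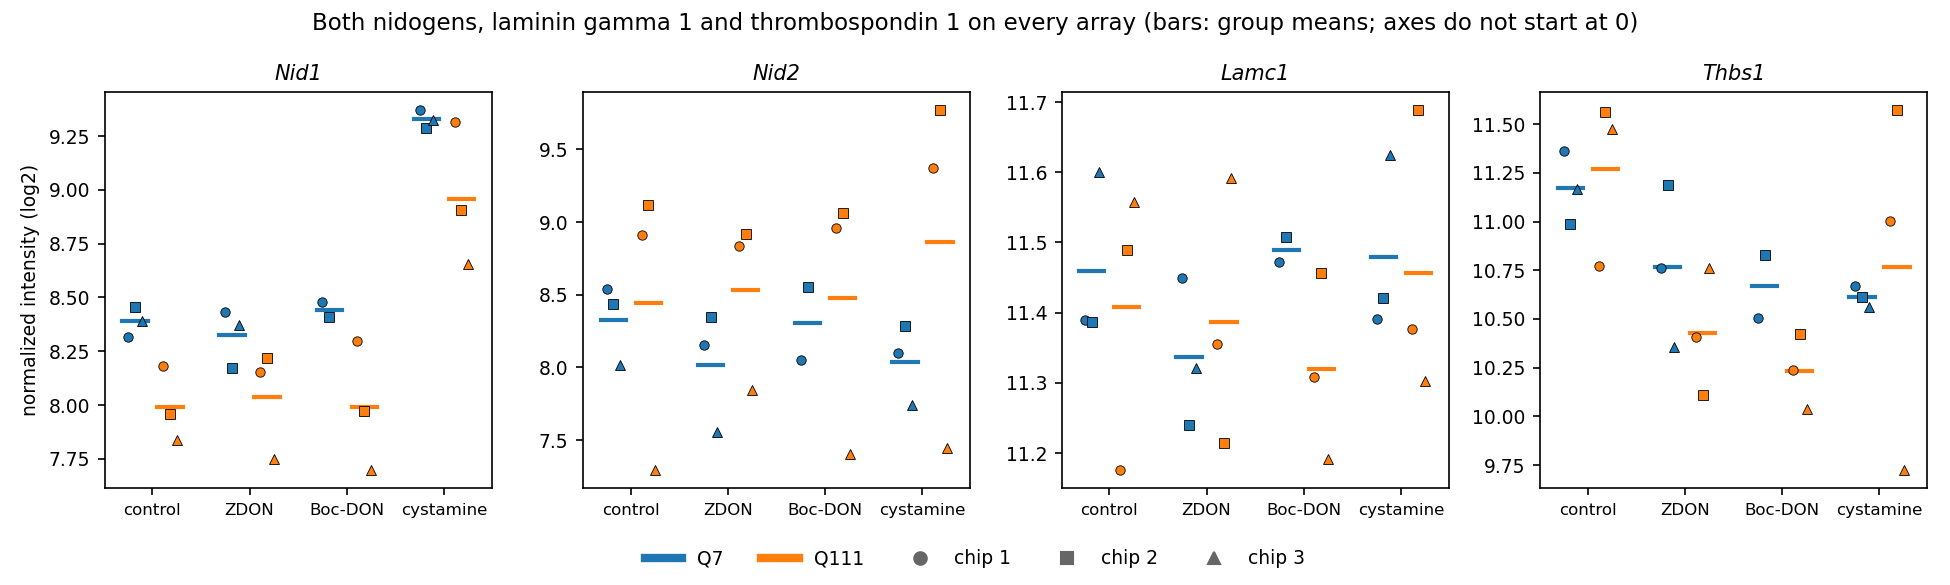
Normalized log2 intensity on every array of Nid1, Nid2, Lamc1, the laminin chain that Nid1 binds, and Thbs1, by arm; blue is Q7, orange is Q111, shapes are chips and bars are group means. Nid1 is higher with cystamine in both lines on all 3 chips, and Nid2 spreads widely in Q111 with chip 3 lowest.

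Partners of Nid1 in the basement membrane gave smaller values with cystamine, none called. Nid2 differed from control by 0.42 in Q111 with a 95% interval from -0.66 to 1.51. Col4a1, Col4a2, Lamb1 and Sparc were above control in Q111 at an unadjusted p under 0.05, with Sparc at 0.47 (adjusted p = 0.328) and Lamb1 at 0.32 (adjusted p = 0.48). With Nid1 these made 5 of 45 genes, and 10.2% of all genes passed that threshold. In Q7 there were 4, Nid1 above control and Loxl4, Lamc3 and Col5a2 below it, beside 7.63% of all genes. In Q7, Loxl4 and Thbs1 had the most negative differences from control, -0.40 (adjusted p = 0.387) and -0.56 (adjusted p = 0.734). Thbs1 was also the most negative in Q111, at -0.50 and not called. There only the chip 3 array fell, by -1.75, while chips 1 and 2 gave 0.23 and 0.008. The median over the 45 genes was 0.08 in Q111 and -0.03 in Q7, beside -0.0074 and -0.0082 for all genes.

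Neither ZDON nor Boc-DON changed any of the 45 genes at an adjusted p under 0.05 by limma in either line. At an unadjusted p under 0.05, ZDON gave 4 in Q111 and 2 in Q7, and Boc-DON gave 4 and 3. In the same order, 6.87%, 5.08%, 9.16% and 7.54% of all genes passed that threshold, so the counts were near the background. The signs leaned downward: 15, 10, 13 and 9 of the 45 estimates lay above 0, against 51.4%, 50.4%, 53.1% and 53.7% of all genes. This lean was not tested. Of all genes, the share called was 0% and 0.0203% with ZDON and 0.0609% and 0.0203% with Boc-DON, in Q111 and Q7. Thbs1 had the most negative estimate in Q111 with both: it read 10.77, 11.56 and 11.47 in controls, 10.41, 10.11 and 10.76 with ZDON, and 10.24, 10.42 and 10.04 with Boc-DON. Every Boc-DON and ZDON array lay under every control, though the highest ZDON array nearly met the lowest control. The differences were -1.04 with Boc-DON (SE 0.31, adjusted p = 0.249) and -0.84 with ZDON (SE 0.31, adjusted p = 0.569). In Q7 they were -0.51 (adjusted p = 0.756) and -0.40 (adjusted p = 0.999). Loxl4 in Q111 was at -0.55 with Boc-DON (adjusted p = 0.169, and 0.052 with the chip as a block) and at -0.34 with ZDON (adjusted p = 0.662). In Q7, Col8a1 had the most negative Boc-DON estimate, -0.75 (adjusted p = 0.498), and Col3a1 the most negative ZDON estimate, -0.48 (adjusted p = 0.919). Lamb1, a laminin beta chain, had the highest ZDON estimate in Q111, 0.47 (adjusted p = 0.432). These comparisons share their control arrays, so their likeness is given only as values side by side. The medians over the 45 genes were -0.09 in each line with ZDON, and -0.12 in Q111 and -0.16 in Q7 with Boc-DON. For all genes they were 0.0061 in Q111 and 0.0014 in Q7 with ZDON, and 0.012 and 0.017 with Boc-DON.

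**Figure D5:**
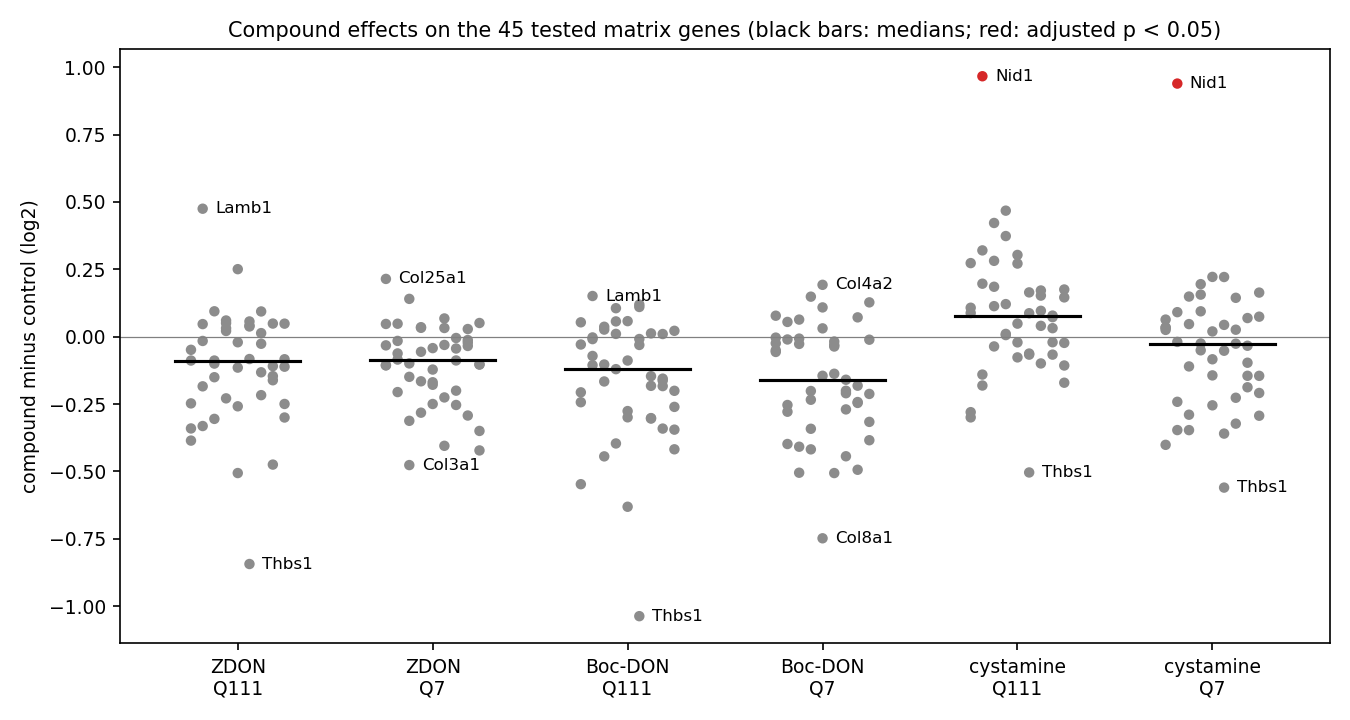
Compound minus control on the log2 scale for the 45 tested genes in each line; black bars are medians, red points passed an adjusted p of 0.05 and the lowest and highest genes are named. Nid1 with cystamine is the only red point in each line, and Thbs1 is lowest in 4 of the 6 comparisons.

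ZDON and Boc-DON, given at the same 50 µM for 12 h, were compared directly, and none of the 45 genes was called in either line by limma, against 0% of all genes in each. At an unadjusted p under 0.05 there was 1, Lamb1, in Q111, at 0.32 higher with ZDON (95% interval 0.009 to 0.638), and 0 in Q7, beside 3.87% and 6.55% of all genes. For Thbs1 the compounds differed by 0.19 in Q111 (95% interval -0.46 to 0.85) and for Tgfbi by 0.13 (-0.50 to 0.75), so differences of this width were not detectable with 3 arrays a group. Over the 45 genes, half-widths of the 95% intervals reached 1.08 in Q111 and 1.21 in Q7. Cystamine was given at 250 µM, so its values are not set against those of the other 2 compounds.

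Whether a compound acted differently in the lines was tested with an interaction term. None of the 45 genes passed for ZDON, Boc-DON or cystamine by limma, and 0% of all genes were called in each. At an unadjusted p under 0.05 there were 0, 1 and 3, beside 2.14%, 3.25% and 4.02% of all genes. The highest estimate for cystamine was that of Nid2 at 0.71, with a 95% interval from -0.82 to 2.24. For Boc-DON the most negative was Tgfbi at -0.74, from -1.68 to 0.20.

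Enzymes that fold, trim and secrete collagen were followed as a separate list. Of 16 tested genes, 4 were higher in Q111 and none lower: Bmp1, which removes the procollagen C-terminus, by 0.31, Plod1, a lysyl hydroxylase, by 0.26, Pcolce2, an enhancer of procollagen trimming, by 0.20, and Serpinh1, the collagen chaperone, by 0.20. The list's median difference was 0.12, against -0.0075 for all genes, of which 6.46% were called higher and 4.84% lower in this comparison, the shares to set beside every list that follows. Of 13 tested matrix metalloproteinases and inhibitors, 3 were higher in Q111, Mmp2 by 0.96, Mmp14 by 0.32 and Mmp11 by 0.27, and 2 were lower, Mmp10 at -0.95 and Mmp3 at -0.47. Mmp10, a stromelysin, also rose with cystamine in both lines, by 0.68 in Q111 (adjusted p = 0.00719) and 0.87 in Q7 (adjusted p = 0.000478). Among 21 integrins and other matrix receptors, Itga11, a collagen receptor subunit, was higher by 0.73, Sdc2 by 0.50 and Cd47, a thrombospondin receptor, by 0.35.

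Of 21 further matrix proteins tested outside the rule, 7 were higher and 2 lower in Q111. Mfap5, among the 7, lay above the array median on 8 arrays, all of Q111, so it was tested only through Q111. Ltbp2 was dim as well, above the array median on 10 arrays, with medians of 6.64 in Q7 and 7.52 in Q111. Prelp, a leucine-rich proteoglycan, differed by 1.07, Emilin1, an elastic fibre glycoprotein, by 0.87 and Ltbp2, a microfibril protein, by 0.78, while Tnxb and the proteoglycan Vcan differed by -0.55 and -0.27. Among 17 tested genes of TGF-beta signalling and its matricellular response, 4 were higher, Ltbp2 again, Ccn2 by 0.64, Tgfb3 by 0.54 and Smad6 by 0.23, and none was lower. Tgm2, which encodes the transglutaminase that the compounds inhibit, differed by -0.13 between the lines (adjusted p = 0.666).

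Markers of other cells moved with the line difference in part. Of 8 tested fibroblast and mesenchyme markers, Pdgfra was higher in Q111 by 1.22, Tagln by 0.57 and Pdgfrb by 0.46. Twist2 was lower, at -0.24. Pdgfra lay above the array median on the 12 Q111 arrays alone, so it was tested only through Q111. Its range was 6.37 to 6.71 in Q7 and 7.01 to 8.30 in Q111. The summed normalized intensity of that list ran from 22195 to 27407 on Q7 arrays and from 20564 to 25524 on Q111 arrays. That sum is set mainly by the brightest genes, S100a4 and Twist2. Pdgfra, Tagln and Pdgfrb were far dimmer and add little to it, so the overlap of the sums cannot show whether these markers differed. Of 5 tested progenitor markers, Dlx2 was higher by 1.64 and Dlx1 by 0.49. Dlx2 too was tested only through Q111, at 5.91 to 6.42 in Q7 and 7.17 to 8.32 in Q111. Of 7 tested striatal neuron markers, Pde10a was lower, at -0.90. Of 4 tested general neuron markers, Syn1 was higher by 0.18 (adjusted p = 0.0434), 3 were called higher with the chip as a block, and the median was 0.20. Of 4 tested endothelial markers only Flt1 was called, lower at -0.84, and the list's median was 0.02, with Cdh5 at 0.13, Tek at 0.13 and Pecam1 at -0.10. Kdr, Tie1 and Vwf lay under the array median on every array. Pericyte markers gave no call among 3 tested. The part of these markers in the matrix differences was not tested.

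Other probes of the same genes gave a second reading for some calls. Both further Col6a1 probes were called, at 0.96 and 0.30, as was the second Tgfbi probe at 0.93. The dimmer second probes of Col2a1, Col3a1, Col4a6 and Col7a1 were not, at 0.006, 0.03, 0.05 and 0.16. The other 3 Dcn probes gave 0.15, 0.20 and -0.01, none called. Tnc, called lower only with the block, had 6 probes. Its others gave -0.31, -0.15, -0.04, 0.06 and 0.12, none called in the main model. Single probes carried the calls for Thbs2, Lox, Col1a1, Col1a2, Bgn, Col6a2, Loxl1, Loxl2, Loxl4, Sparc and Nid1.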

How the data were processed

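Illumina mouse BeadChips measured RNA on 23 arrays. The deposited table holds non-normalized intensities exported with BeadStudio, per the submitters' processing notes, and the authors' deposited log2 values equal these intensities after quantile normalization and log2 (largest difference 5e-09). The sources used here do not state a background subtraction before deposit. Of 24611 probes, 19851 carried 1 gene symbol and 4760 none. 1 column matched no sample in the labels and was not used.

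Intensities were background-corrected (normexp, offset 50), quantile normalized and put on log2, and the offset understates fold changes of dim probes. Probes above the array median on at least 2 arrays were kept (15049), with 1 probe a gene, that of the highest mean. A group-means model of all 8 groups was fitted with limma 3.58.1 in R 4.3.3 (15 residual degrees of freedom), p-values were adjusted by Benjamini-Hochberg over 9849 genes, and the threshold was 0.05. Single arms and compound effects rest on 2 or 3 arrays a group, which limits their precision. The scripts were tested on simulated data.

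Replicate numbers are BeadChips per the labels. Deviations from group means correlated with a median of 0.21 over 77 same-chip pairs and -0.11 over 154 others, so the chip was fitted as a block beside the main model. Alternatives were the block, no probe filter, no background correction, median scaling, the deposited log2 values, only the groups compared, other probes, and leaving out each array or chip 3. Every matrix gene found by the rule was counted, and those called, the extremes of each comparison and a few chosen names were given values. Genes and lists were chosen with earlier results of these data known.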

Additional observations from a re-analysis of the deposited data

How the results depend on the processing

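Of the counts of called matrix genes, that of the averaged line difference stayed within 1.5 times its value of 18 with the chip as a replicate block (22), without the probe filter, without background correction, with median scaling and with the deposited log2 values. With the replicate block the control arm gave 11 calls in place of 7 and the Boc-DON arm 8 in place of 5, and the block ended no call. Fitting only the groups compared gave 4 in place of 10 for the cystamine arm and 0 in place of 1 for cystamine in Q111, with fewer arrays behind the spread. Over all genes, that fit gave 73 calls in place of 283 and 16 in place of 63. Median scaling gave 0 in place of 1 for cystamine in Q7, and 14 in place of 40 over all genes. It moved the median of all genes by -0.10 for cystamine in Q111 and -0.12 in Q7, and relative to the new medians Nid1 differed by 0.93 and 0.87. Leaving out arrays or chip 3 gave 17 to 27 calls for the averaged difference, 3 to 15 for the control arm, 3 to 14 for ZDON, 1 to 18 for Boc-DON, 6 to 21 for cystamine and 1 to 3 for cystamine in Q111, and the highest count in each was without chip 3. The lowest Boc-DON count, 1, left 1 Q7 array or dropped a Q111 array, and a lone array is assumed to vary like the other groups. Without the third Q7 ZDON array, with its low 18S signal, the averaged difference gave 19 calls and the ZDON arm 5. Lox, Tgfbi and Thbs2 kept their calls in the control arm, Col1a2, Tgfbi and Thbs2 in the ZDON arm, Thbs2 alone in the Boc-DON arm, and Col1a2, Col6a1, Col6a2, Lox, Tgfbi and Thbs2 in the cystamine arm, whichever array was left out. The third other Dcn probe reversed the sign, at -0.0121 (adjusted p = 0.939), and the cause was not tested. The fit of only the groups compared is not available for the averaged difference, which uses all arrays.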
